A study of Mus musculus with 30 samples.

Results

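Transcripts of 10 pattern-recognition and uptake receptors of macrophages were followed: the scavenger receptors Marco, Msr1 and Cd36, the C-type lectin receptors Mrc1, Clec4d, Clec4e, Clec4n, Clec5a and Clec7a, and the apoptotic-cell receptor Mertk. They were chosen by name, as the rows of the deposited count table (32361 Ensembl gene IDs) whose IDs belong to these symbols. The choice was made with earlier results of these data known, so counts called beside the share of all genes are descriptions. All 10 were found, and all 10 passed the filter on low counts. RNA had been sequenced from bulk cultures of bone marrow-derived macrophages, grown from C57BL/6J bone marrow with M-CSF from L929 supernatant. Ticam2-/- cells (KO) and wild-type cells (WT) were each given 10 ng/mL LPS for 2 h, 100 ng/mL LTA for 2 h, 10 ng/mL LPS for 6 h or 100 ng/mL LTA for 6 h, or were left untreated. Each of the 10 groups held 3 libraries, and the labels give 3 animals per genotype as the replicates, without saying whether the 2 h and 6 h libraries came from the same animals. Ticam2 encodes TRAM, which carries the signal of endosomal TLR4 to TRIF. LPS is the ligand of TLR4, and LTA is read mainly through TLR2. The sources used here describe neither the KO allele nor whether the WT mice were littermates. In bulk RNA, fewer cells that express a gene and less RNA per cell cannot be told apart.

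Marco and Msr1 are trimeric class A scavenger receptors that bind polyanions such as modified lipoproteins and bacterial surfaces, and Cd36 takes up oxidised lipoproteins and fatty acids and assists TLR2 with some ligands. Among the lectins, Clec4e (Mincle) binds mycobacterial cord factor and works with its relative Clec4d (MCL), Clec4n (Dectin-2) binds mannans, Clec5a signals through DAP12, and Clec7a (Dectin-1) binds beta-glucan. Clec4e, Clec4d and Clec4n signal through the Fc receptor gamma chain to Syk and the Card9, Bcl10 and Malt1 complex, and Clec7a reaches Syk through its own tail. Mrc1, the mannose receptor, is an endocytic lectin of alternatively activated macrophages, and Mertk is a receptor tyrosine kinase that engulfs apoptotic cells by way of its ligands Gas6 and Pros1. Clec4e is a known target of C/EBP beta in LPS-treated mouse macrophages.

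Clec4n, Clec4d and Clec4e lie side by side on chromosome 6 of GRCm38 (GENCODE M21), Clec4n at chr6:123229843-123247021 on the plus strand, Clec4d at chr6:123262111-123275265 on the plus strand and Clec4e at chr6:123281789-123289870 on the minus strand. Between Clec4n and Clec4d lie 15089 bases, and between the facing 3′ ends of Clec4d and Clec4e lie 6523. The other lectin genes of chromosome 6 are Clec5a at chr6:40574894-40585821 and Clec7a at chr6:129461591-129472779, both on the minus strand. Elsewhere lie Marco (chr1:120474538-120505024), Msr1 (chr8:39581685-39642673), Cd36 (chr5:17781690-17888801), Mrc1 (chr2:14229392-14332057) and Mertk (chr2:128698956-128802894). RefSeq promoter windows (GRCm38.p6, 250 bases before each start and 50 from it) were found for 8 of the 10 receptors, in 9 windows. The motifs searched on both strands were C/EBP (TTGCNNAA), AP-1 (TGANTCA), PU.1 (GAGGAAGT), GAS (TTCNNNGAA), ARE (TGACNNNGC) and, by name, ISRE core and kappaB. Of all 32851 promoters of the same length, 10.8% held the C/EBP letters, 7.81% the AP-1 letters, 3.20% those of PU.1, 8.30% those of GAS, 3.44% those of the ISRE core, 12.4% those of ARE and 8.46% the kappaB motif. In the receptor windows 1 match to C/EBP was found, in Clec4e, 66 to 59 bases before its start, and 1 match to the ISRE core, in Clec4d, on the other strand over the first 10 bases of the transcript. The other 5 motifs had no match in these 9 windows. The matches do not overlap another motif, and they describe letters, not binding. The upstream windows (250 bases and the first 10 from the start) are shown for the adjacent pair whose transcripts moved together and for Marco, whose KO over WT fold change was the largest at 2 h, with motif matches in capitals.
Clec4e promoter, chr6:123289862-123290121, minus strand, GRCm38.p6: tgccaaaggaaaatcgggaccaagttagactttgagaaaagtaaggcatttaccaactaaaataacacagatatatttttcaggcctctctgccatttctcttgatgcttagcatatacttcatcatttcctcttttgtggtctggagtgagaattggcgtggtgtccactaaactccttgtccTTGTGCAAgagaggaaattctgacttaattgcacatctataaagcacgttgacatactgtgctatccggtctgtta
Clec4d promoter, chr6:123261857-123262116, plus strand, GRCm38.p6: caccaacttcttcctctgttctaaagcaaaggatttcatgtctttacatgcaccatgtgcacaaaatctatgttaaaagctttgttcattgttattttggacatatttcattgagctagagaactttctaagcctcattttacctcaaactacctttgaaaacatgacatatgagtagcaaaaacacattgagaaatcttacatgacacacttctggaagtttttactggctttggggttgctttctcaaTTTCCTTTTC
Marco promoter, chr1:120505015-120505274, minus strand, GRCm38.p6: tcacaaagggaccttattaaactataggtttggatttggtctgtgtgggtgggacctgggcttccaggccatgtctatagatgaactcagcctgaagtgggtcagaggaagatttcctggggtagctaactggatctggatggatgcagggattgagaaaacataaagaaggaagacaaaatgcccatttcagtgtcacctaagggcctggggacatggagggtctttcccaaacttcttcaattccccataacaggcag

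Depth ran between 10641070 and 13521660 counts in the untreated and 6 h libraries and between 1334784 and 2658329 in those of 2 h. The 2 h libraries stand apart in other ways: each holds Alb counts, which the others lack, and none holds the Hbb-bs counts of the others. No untreated library belongs to that set, so a 2 h group against untreated cells also compares library sets, while KO against WT stays within a set. Ticam2, the targeted gene, had 5 to 10 counts in untreated KO libraries against 120 to 145 in WT, 10 to 26 in KO against 168 to 260 in WT at 6 h, and 1 to 14 in KO against 15 to 28 in WT at 2 h. Nnt, which the C57BL/6J substrain is known to lack in part, is listed under a pair of IDs that can share reads, and the KO over WT log2 fold change of the first was 1.06 ± 0.10 in untreated cells, 1.07 ± 0.13 with LPS for 6 h and -0.02 ± 0.23 with LPS for 2 h. All 7 macrophage markers (Adgre1, Csf1r and others) had counts in every group, and the summed markers of T and NK cells, dendritic cells and B cells reached at most 4.13 CPM (counts per 1000000 counts). The 5 erythroid markers summed to 4273 to 5993 CPM in the untreated and 6 h libraries and to at most 0.456 CPM at 2 h, and hepatocyte markers to 20.8 to 29.3 CPM in the first set and 41.1 to 85.7 CPM in the second. Levels below are CPM scaled by TMM factors (edgeR), as mean ± SD (n = 3), fold changes are log2 ± standard error (n = 3 per group), and a change was called where edgeR's quasi-likelihood test gave a Benjamini-Hochberg adjusted p under 0.05 over 15119 genes. The WT groups of 6 h had mean TMM factors of 0.699 (LPS) and 0.748 (LTA), while those of every other group lay between 1.00 and 1.15. When total counts set the scale instead, the median gene moved by 0.54 with LPS and 0.44 with LTA in KO against WT at 6 h, and by -0.66 and -0.58 in the WT responses, so directions at 6 h are given under both scalings where they part.

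In untreated cells 7 receptors were lower in KO than in WT and Cd36 was higher, 8 of 10 called against 13.4% of all genes tested (7.47% lower and 5.97% higher). Clec7a and Mertk did not pass the test in untreated cells. After 2 h with LPS 6 were higher in KO (Marco, Msr1, Cd36, Clec4d, Clec4e and Clec5a) and 2 lower (Mrc1 and Clec7a), 8 called against 16.4% of all genes (9.11% higher and 7.24% lower). With LTA for 2 h the same 6 were higher, against 13.0% of genes called in either direction and 7.83% called higher. At 6 h of LPS 7 were lower in KO and 2 higher (Marco and Cd36), and with LTA 7 were lower and 1 higher (Cd36), where 63.3% of all genes were called with LPS (30.6% lower) and 58.5% with LTA (28.0% lower), so the number called at 6 h says little about these receptors. Under total counts the 6 h split was 6 higher and 2 lower with LPS, and 3 higher and 4 lower with LTA.

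Marco, Msr1, Clec4d, Clec4e and Clec5a shared an order: lower in KO when untreated and higher in KO at 2 h of either ligand. For these 5 the signed KO over WT log2 fold change was lower at 6 h than at 2 h with both ligands. For Msr1, Clec4d and Clec4e it lay below 0 at 6 h with each ligand. Time and library set cannot be told apart there, and the test of the difference was added after the values were seen. That test called 5 receptors with LPS, all downward, against 45.5% of all genes in either direction and 23.5% downward, and 8 with LTA (Clec4n, Clec7a and Mertk as well) against 40.6%. With LTA the Clec4n value (-0.53) was lost with total counts (-0.024), without the low-count filter and without any one of KO replicates 2 and 3 and WT replicate 1 of 2 h (-0.51 to -0.48). The Clec7a value (-0.34) turned to 0.16 with total counts and was lost without the filter and, at -0.33 to -0.28, without any one of 6 libraries. Between LPS and LTA at 2 h, edgeR's quasi-likelihood test called no difference in the KO over WT fold change, with 0 called, 0 at an unadjusted p under 0.05 and 0 by DESeq2 (0.126% of all genes called). The largest such difference was 0.22 ± 0.25, for Clec4n.

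**Figure D1:**
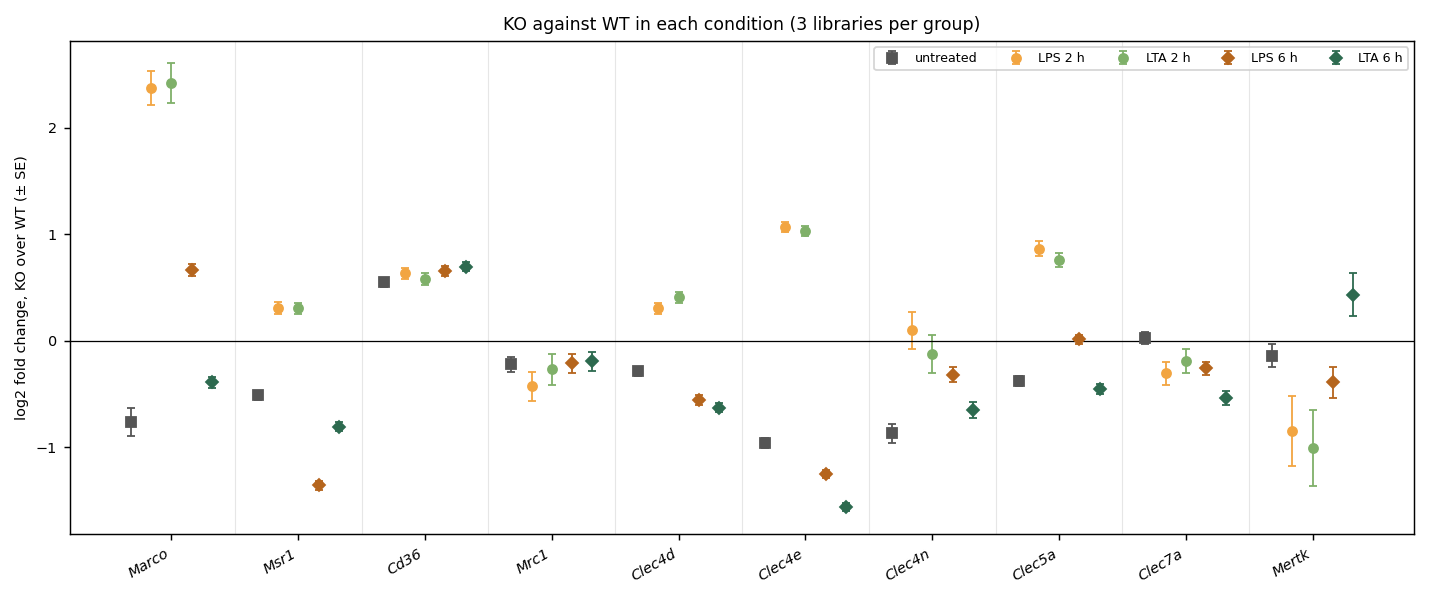
Log2 fold change of KO over WT for each receptor (vertical axis, TMM scaling, ± standard error) in untreated cells and with LPS or LTA for 2 h or 6 h. Marco, Clec4e and Clec5a lie below 0 in untreated cells and above 0 at 2 h, and Cd36 lies above 0 in all 5 conditions; scaled by total counts the 6 h points of several receptors cross 0.

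**Figure D2:**
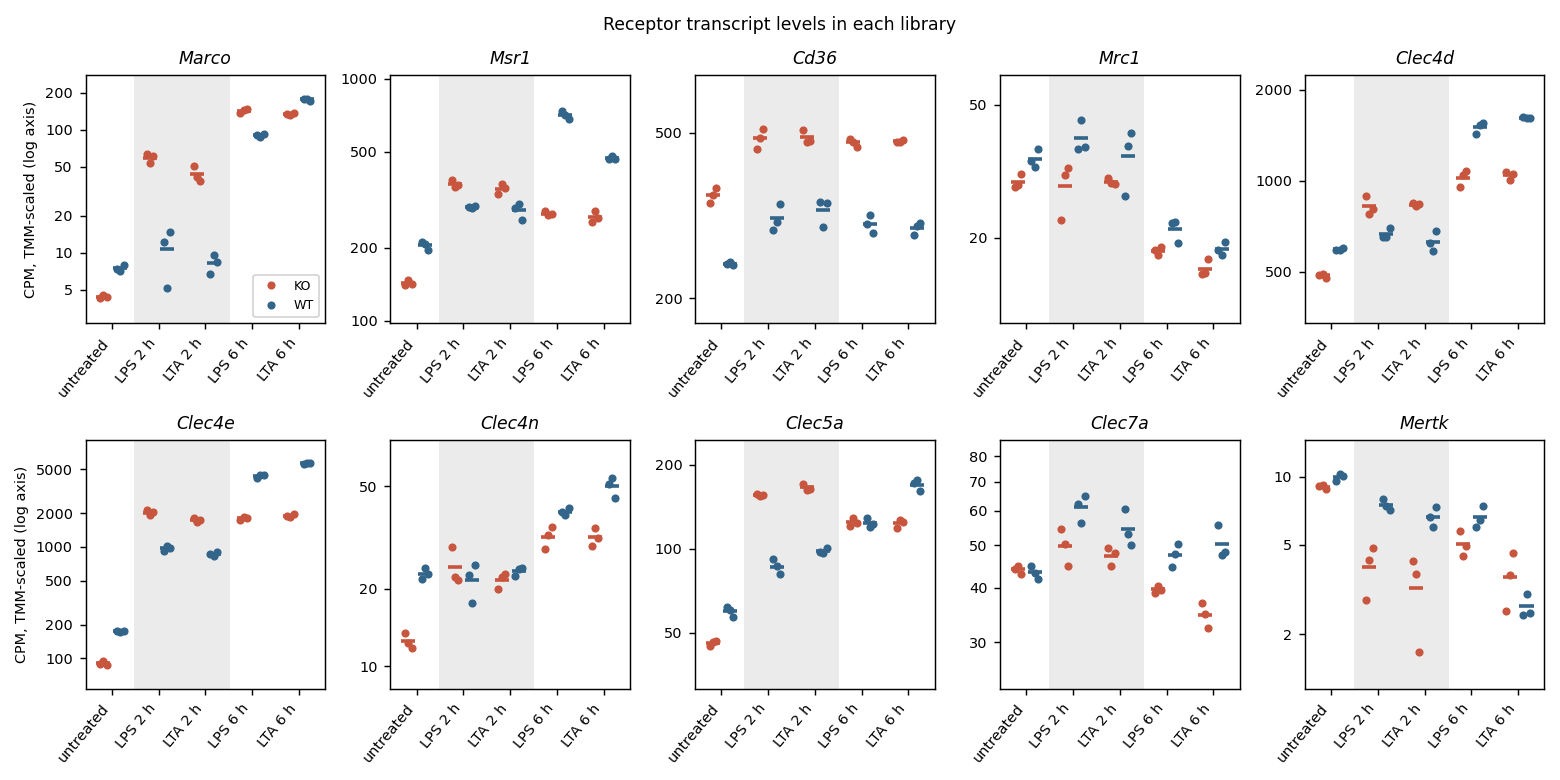
Level of each receptor in each library (CPM with TMM scaling, log axis; points are libraries, bars are means of 3), KO in red and WT in blue. The shaded 2 h libraries are a separate, shallower set; Clec4e in WT cells reaches 5644 CPM with LTA at 6 h, while KO cells stay near their 2 h level.

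Marco gave the widest swings among the scavenger receptors. Untreated KO libraries held 4.27, 4.51 and 4.33 CPM and WT libraries 7.35, 7.05 and 7.98 CPM. With LPS for 2 h, KO cells held 63.0, 53.3 and 61.0 CPM against 12.3, 5.12 and 14.6 CPM in WT cells. With LTA for 2 h the libraries held 50.6, 41.2 and 38.5 CPM in KO and 6.67, 9.55 and 8.34 CPM in WT. All 6 KO libraries of 2 h thus lay above all 6 WT libraries, whose raw counts were only 9 to 39. The KO over WT fold change was 2.37 ± 0.16 with LPS (adjusted p = 6.0e-18) and 2.42 ± 0.19 with LTA (adjusted p = 2.0e-15), opposite in sign to -0.77 ± 0.13 in untreated cells. At 6 h the order of the genotypes depended on the ligand: with LPS, KO libraries held 135, 144 and 147 CPM and WT libraries 90.5, 86.4 and 92.2 CPM, and with LTA, KO libraries held 134, 131 and 136 CPM and WT libraries 179, 176 and 172 CPM. Marco was higher in KO with LPS (0.66 ± 0.05) and lower with LTA (-0.39 ± 0.05), although scaled by total counts the LTA value was 0.04 ± 0.05 and no longer called. The LPS minus LTA difference between these values was 1.06 ± 0.07 (adjusted p = 1.3e-17) and kept its sign with total counts (1.14).

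Relative to untreated cells, 6 h of LPS raised Marco by 5.02 ± 0.08 in KO and 3.59 ± 0.08 in WT, and 6 h of LTA by 4.93 ± 0.08 in KO and 4.56 ± 0.07 in WT. The KO response to LPS exceeded the WT response by 1.43 ± 0.14 (adjusted p = 1.3e-12). With LTA the excess was 0.37 ± 0.14 (adjusted p = 0.029); it was lost by DESeq2 (0.29), with RLE factors (0.29) and, at 0.30 to 0.37, without any one of untreated KO replicates 1 and 3, untreated WT replicate 3 or the 3 WT libraries with LTA at 6 h. At 2 h the KO level was already above untreated by 3.73 ± 0.13 with LPS and 3.32 ± 0.14 with LTA. In WT cells the value was 0.59 ± 0.19 with LPS, which fell to 0.19 and 0.53, neither called, without replicate 3 or replicate 1, and 0.14 ± 0.22 with LTA, not called.

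Msr1, the other class A receptor, was higher in KO at 2 h but far lower at 6 h. Its untreated level was 141, 148 and 142 CPM in KO libraries and 211, 208 and 197 CPM in WT libraries. With LPS for 6 h it was 284, 273 and 276 CPM in KO and 739, 710.0 and 684 CPM in WT, and with LTA 256, 285 and 265 CPM in KO and 465, 479 and 465 CPM in WT. The groups did not overlap in either condition. Msr1 was lower in KO with LPS (-1.36 ± 0.04, adjusted p = 1.5e-34) and with LTA (-0.81 ± 0.04), and it stayed lower with total counts (-0.83 and -0.37). At 2 h the KO libraries held 356 to 382 CPM with LPS and 334 to 367 CPM with LTA, and the WT libraries 293 to 299.5 CPM with LPS and 262 to 303 CPM with LTA. The 2 h fold changes, 0.31 ± 0.05 and 0.30 ± 0.06, were small beside those at 6 h. Over untreated cells, 6 h of LPS raised Msr1 by 0.95 ± 0.04 in KO and 1.79 ± 0.04 in WT, and 6 h of LTA by 0.90 ± 0.04 in KO and 1.19 ± 0.04 in WT. The KO minus WT difference of these responses was -0.84 ± 0.06 for LPS and -0.29 ± 0.06 for LTA, although with total counts the LTA difference was 0.12 ± 0.06, not called.

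Cd36 was the only receptor of the 10 that was higher in KO in every condition, also with total counts. Untreated KO libraries held 339, 355 and 368 CPM and WT libraries 241, 244 and 241 CPM. At 6 h KO libraries held 484, 475 and 463 CPM with LPS against 302, 317 and 286 CPM in WT, and 475, 476 and 481 CPM with LTA against 284, 298 and 303 CPM in WT. Every KO library exceeded every WT library of its condition, at 2 h too, where KO held 457 to 511 CPM with LPS and 476 to 509 CPM with LTA and WT 293 to 337 CPM with LPS and 297 to 341 CPM with LTA. In log2 terms KO over WT was 0.55 ± 0.04 untreated, 0.63 ± 0.05 after 2 h of LPS, 0.58 ± 0.05 after 2 h of LTA, 0.65 ± 0.04 after 6 h of LPS and 0.69 ± 0.04 after 6 h of LTA (adjusted p between 2.3e-20 and 1.4e-12). No other receptor kept its sign over the 5 conditions with all values called. The response to LPS at 6 h was 0.42 ± 0.04 in KO and 0.32 ± 0.04 in WT, and their difference (0.10 ± 0.06, adjusted p = 0.16) did not pass, although total counts gave 0.61 (adjusted p = 2.1e-12). With LTA the difference, 0.15 ± 0.06, passed narrowly (adjusted p = 0.0496) and was lost by DESeq2 and with RLE factors (0.065 each) and without any one library of its 4 groups except untreated KO replicate 3 (0.07 to 0.15). The WT values at 6 h turned to -0.38 with LPS and -0.31 with LTA under total counts, while the KO rise stayed positive.

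Clec4e (Mincle) rose most of the lectins. Untreated KO libraries held 88.3, 94.9 and 87.9 CPM and WT libraries 177, 173 and 178 CPM. With LPS for 2 h KO libraries held 2131, 1938 and 2046 CPM and WT libraries 924, 1019.7 and 973 CPM, and with LTA 1832, 1688 and 1748 CPM in KO and 857, 825 and 898 CPM in WT. With LPS for 6 h KO libraries held 1753, 1860.0 and 1830.5 CPM and WT libraries 4158, 4429 and 4395 CPM, and with LTA 1893, 1864 and 1972 CPM in KO and 5583, 5639 and 5711 CPM in WT. KO libraries of 6 h thus lay within the range of those of 2 h, a separate library set. With total counts, KO replicates 1 and 3 of LPS at 6 h (1812 and 1804 CPM) lay below all those of 2 h (1831 CPM or more). Every WT library of 6 h lay above every KO library of either time, and no KO group overlapped its WT counterpart. The fold change of KO over WT was -0.96 ± 0.05 untreated, 1.07 ± 0.04 after 2 h of LPS, 1.03 ± 0.04 after 2 h of LTA, -1.25 ± 0.04 after 6 h of LPS and -1.56 ± 0.04 after 6 h of LTA. All 5 were called (adjusted p at most 5.7e-24), and the 6 h values were -0.73 and -1.13 with total counts. The change between 2 h and 6 h was -2.32 ± 0.06 with LPS and -2.59 ± 0.06 with LTA, past the threshold under every alternative run.

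Set against untreated cells of the same genotype, 6 h of LPS raised Clec4e by 4.33 ± 0.05 in KO and 4.62 ± 0.05 in WT, and 6 h of LTA by 4.40 ± 0.05 in KO and 5.00 ± 0.05 in WT. The KO minus WT difference of the responses was -0.29 ± 0.06 for LPS and -0.60 ± 0.06 for LTA, each smaller in size than the untreated gap between the genotypes. With total counts the LPS difference turned to 0.21 and the LTA difference was -0.19. At 2 h the rise over untreated was 4.49 ± 0.05 in KO and 2.47 ± 0.05 in WT with LPS.

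Clec4d (MCL), the neighbour and partner of Clec4e, followed it with smaller changes. It averaged 485 ± 7.65 CPM in untreated KO and 593 ± 3.33 CPM in untreated WT cells, 825 ± 56.8 CPM in KO and 665 ± 26.5 CPM in WT with LPS for 2 h, and 1024 ± 62.5 CPM in KO and 1507 ± 66.9 CPM in WT with LPS for 6 h. Its KO over WT fold change was -0.29 ± 0.04 untreated, 0.30 ± 0.05 after 2 h of LPS, 0.41 ± 0.05 after 2 h of LTA, -0.56 ± 0.04 after 6 h of LPS and -0.63 ± 0.04 after 6 h of LTA. With LTA it averaged 834 ± 11.4 CPM in KO and 629 ± 47.2 CPM in WT at 2 h, and 1043 ± 31.4 CPM in KO and 1616 ± 10.3 CPM in WT at 6 h. KO and WT libraries of Clec4d did not overlap in any of the 5 conditions. With total counts the LPS value at 6 h was -0.04 ± 0.04, not called, and the LTA value -0.20 ± 0.04. Over untreated cells, 6 h of LPS raised Clec4d by 1.08 ± 0.04 in KO and 1.35 ± 0.04 in WT, and 6 h of LTA by 1.10 ± 0.04 in KO and 1.45 ± 0.04 in WT. The differences of these responses were small and changed sign under total counts (-0.27 against 0.23 for LPS, -0.34 against 0.07 for LTA). Over the 18 untreated and 6 h libraries, which share 6 groups, Clec4d and Clec4e had a Pearson r of 0.99 in log2 CPM, the highest of any pair among the receptors.

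Clec4n (Dectin-2), the third gene of the stretch, did not share the 2 h pattern. Untreated KO libraries held 13.5, 12.4 and 11.8 CPM and WT libraries 21.8, 24.1 and 22.9 CPM, a fold change of -0.87 ± 0.09 (adjusted p = 1.8e-11). At 2 h KO libraries held 29.0, 22.2 and 21.6 CPM and WT libraries 22.7, 17.6 and 24.7 CPM with LPS, which overlap, as did 20.0, 22.2 and 22.9 CPM in KO and 22.4, 23.9 and 24.1 CPM in WT with LTA. The fold change was 0.10 ± 0.17 with LPS and -0.12 ± 0.18 with LTA, neither called. At 6 h Clec4n averaged 31.9 ± 3.15 CPM in KO and 39.9 ± 1.36 CPM in WT with LPS, and 31.9 ± 2.58 CPM in KO and 50.1 ± 4.50 CPM in WT with LTA. It was lower in KO with LPS (-0.32 ± 0.07), a value that turned to 0.20 with total counts, and with LTA (-0.65 ± 0.07, or -0.22 with total counts). Over untreated cells, 6 h of LPS raised Clec4n by 1.35 ± 0.08 in KO and 0.80 ± 0.08 in WT, and 6 h of LTA by 1.35 ± 0.08 in KO and 1.13 ± 0.07 in WT. With total counts the WT value for LPS was 0.10 (adjusted p = 0.2) and was not called. The KO response to LPS exceeded the WT response by 0.55 ± 0.11 (adjusted p = 4.8e-05).

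Clec5a, the DAP12-coupled lectin, was higher in KO than in WT at 2 h and overlapped WT at 6 h of LPS. KO libraries held 45.1, 46.2 and 46.9 CPM untreated, 157, 155 and 156 CPM with LPS for 2 h and 121, 129 and 123 CPM with LPS for 6 h. WT libraries held 62.1, 60.5 and 57.2 CPM untreated, 91.6, 86.5 and 81.0 CPM with LPS for 2 h and 129, 119.5 and 122 CPM with LPS for 6 h. With LTA for 2 h the levels were 171, 163 and 164 CPM in KO and 97.0, 96.7 and 101 CPM in WT, without overlap. With LTA for 6 h they were 119, 127 and 125 CPM in KO and 171, 176 and 160.4 CPM in WT. Clec5a was lower in untreated KO cells (-0.38 ± 0.05), higher in KO at 2 h (0.86 ± 0.07 with LPS, 0.76 ± 0.07 with LTA) and lower in KO with LTA at 6 h (-0.45 ± 0.04), where total counts gave -0.02 ± 0.04. With LPS at 6 h it was 0.01 ± 0.04, not called, against 0.53 ± 0.04 with total counts, which was called. The median gene moved as far under that scaling. Over untreated cells, 6 h of LPS raised Clec5a by 1.43 ± 0.05 in KO and 1.04 ± 0.05 in WT, a difference of 0.39 ± 0.07 (adjusted p = 2.3e-06), and 6 h of LTA by 1.42 ± 0.05 in KO and 1.50 ± 0.05 in WT.

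Clec7a (Dectin-1) moved little and is annotated as a polymorphic pseudogene in GENCODE M21. It averaged 44.1 ± 0.944 CPM in KO and 43.4 ± 1.46 CPM in WT untreated cells, which overlap. With LPS for 2 h KO libraries held 54.5, 50.4 and 44.8 CPM and WT libraries 62.1, 56.3 and 64.8 CPM. The fold change there was -0.31 ± 0.11 (adjusted p = 0.038), and it was lost, at -0.33 to -0.25, without KO replicate 2 or 3 or WT replicate 1 or 3 of that condition, and without the low-count filter. With LTA for 2 h Clec7a averaged 47.4 ± 2.28 CPM in KO and 54.6 ± 5.44 CPM in WT (-0.20 ± 0.11, not called). At 6 h it averaged 39.6 ± 0.767 CPM in KO and 47.5 ± 2.87 CPM in WT with LPS, and 34.7 ± 2.23 CPM in KO and 50.5 ± 4.57 CPM in WT with LTA. The fold change was -0.26 ± 0.06 with LPS, turned to 0.26 by total counts, and -0.54 ± 0.06 with LTA, -0.10 and not called by total counts. The WT response to LTA at 6 h was 0.22 ± 0.06, turned to -0.38 by total counts. In KO cells Clec7a fell with LTA at 6 h (-0.34 ± 0.06, adjusted p = 5.6e-06), a fall also called with total counts (-0.53).

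Mrc1, the mannose receptor, fell at 6 h in both genotypes. It averaged 29.4 ± 1.51 CPM in untreated KO cells, 18.3 ± 0.543 CPM with LPS and 16.2 ± 0.912 CPM with LTA at 6 h. In WT cells it averaged 34.4 ± 2.15 CPM untreated, 21.2 ± 1.68 CPM with LPS and 18.5 ± 0.855 CPM with LTA at 6 h. The log2 fold change over untreated cells was -0.69 ± 0.08 in KO and -0.70 ± 0.08 in WT for LPS, and -0.87 ± 0.08 in KO and -0.89 ± 0.08 in WT for LTA. The KO minus WT differences, 0.01 ± 0.11 for LPS and 0.03 ± 0.12 for LTA, were not called, although total counts gave 0.51 and 0.44, both called. At 2 h the libraries held 22.7, 30.7 and 32.4 CPM in KO and 36.9, 45.0 and 37.5 CPM in WT with LPS, and 30.2, 29.1 and 29.0 CPM in KO and 26.7, 37.6 and 41.2 CPM in WT with LTA, where they overlap. KO against WT, Mrc1 was -0.22 ± 0.07 in untreated cells (adjusted p = 0.017), and this was lost, at -0.21 to -0.17, without KO replicate 1 or 2 or WT replicate 3. With LPS it was -0.43 ± 0.14 at 2 h, lost without KO replicate 1 (-0.33) or WT replicate 2 (-0.35), and -0.21 ± 0.09 at 6 h, lost without KO replicate 1 (-0.21) or 2 (-0.18) or the low-count filter (-0.15) and turned to 0.31 by total counts. With LTA it was -0.27 ± 0.14 at 2 h and -0.20 ± 0.09 at 6 h, neither called; the 6 h value was called with RLE factors and by DESeq2 (-0.27 each), without the 2 h set, on the groups of the contrast alone and without any one of KO replicate 3 and WT replicates 1 and 2, and turned to 0.24 by total counts. Neither the miRNA gene Mir511, which overlaps Mrc1 on the same strand, nor the antisense gene over Mertk is among the rows used, and no source used here states the strand setting of the counting.

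Mertk, the apoptotic-cell receptor, also fell, and its counts were low. Untreated KO libraries held 113, 116 and 125 counts and WT libraries 135, 134 and 122, while at 2 h the counts were 3 to 12 in KO and 10 to 19 in WT. In CPM, untreated cells averaged 9.06 ± 0.161 in KO and 10.0 ± 0.336 in WT. With LPS for 6 h KO libraries held 5.76, 4.46 and 4.95 CPM and WT libraries 5.98, 6.44 and 7.44 CPM, and with LTA 2.55, 3.66 and 4.59 CPM in KO and 2.44, 3.03 and 2.50 CPM in WT. Over untreated cells, the fold change at 6 h was -0.84 ± 0.12 in KO and -0.59 ± 0.13 in WT for LPS, and -1.33 ± 0.14 in KO and -1.90 ± 0.16 in WT for LTA, all called. In the 2 h set every KO library lay below every WT library of its ligand, but the fold changes of -0.85 ± 0.33 (adjusted p = 0.082) and -1.01 ± 0.36 (adjusted p = 0.064) did not pass; both were called with total counts (-0.94 and -1.08) and on the groups of the contrast alone (-0.88 and -1.05). At 6 h KO against WT was -0.39 ± 0.15 with LPS, lost without KO replicate 2 (-0.30) or WT replicate 3 (-0.34) or the low-count filter (-0.34) and turned to 0.13 by total counts. With LTA it was 0.43 ± 0.20, not called, with libraries that overlap; it was called without KO replicate 1 (0.63) and by total counts (0.86).

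**Figure D3:**
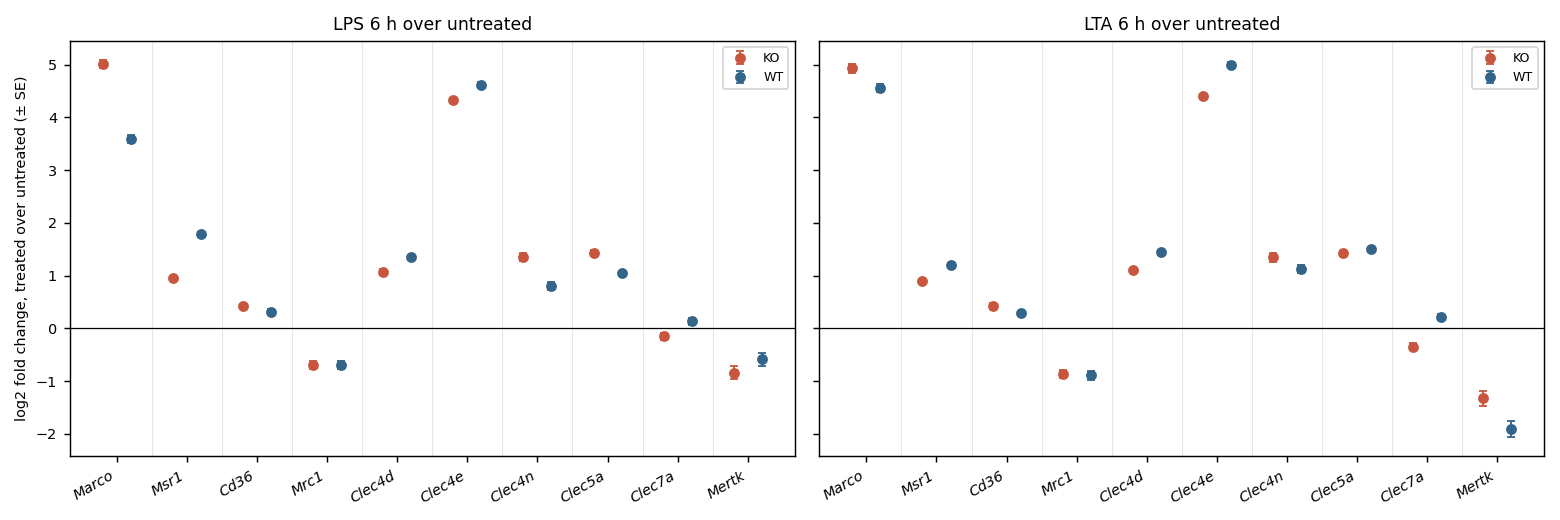
Log2 fold change at 6 h over untreated cells of the same genotype (± standard error, TMM scaling), with LPS on the left and LTA on the right, KO in red and WT in blue. Clec4e and Marco rose most, Mrc1 and Mertk fell in both genotypes, and the KO points of Marco differ little between the ligands while the WT points do.

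KO responses to the ligands at 6 h called 10 receptors with each ligand (7 up, 3 down), where 52.3% of all genes were called with LPS and 52.2% with LTA. WT responses called 9 with LPS (7 up, 2 down; 72.7% of all genes) and 10 with LTA (8 up, 2 down; 71.3%). With total counts the split was unchanged in KO and 5 up and 4 down with LPS and 6 up and 4 down with LTA in WT. The median over the 10 was 1.01 with LPS and 1.00 with LTA in KO, and 0.92 with LPS and 1.16 with LTA in WT, while the median over all genes tested lay between 0.00 and 0.03. With total counts the medians over the 10 were 0.82 and 0.82 in KO and 0.22 and 0.56 in WT. Under that scaling the median over all genes tested was -0.19 with LPS and -0.18 with LTA in KO, and -0.66 and -0.58 in WT. At 2 h against untreated, 8 were called in KO with LPS and 8 with LTA (7 up and 1 down each; 57.2% and 56.0% of all genes), and 7 in WT with LPS (all up; 45.0% of all genes, 19.5% upward) and 6 with LTA (5 up, 1 down; 43.0%). The fall of Mertk in WT with LTA at 2 h (-0.57 ± 0.22) was lost with RLE factors, by DESeq2, on the groups of the contrast alone and without any one of 4 libraries (-0.67 to -0.51), and that of Clec7a in KO with LPS at 6 h (-0.15 ± 0.06) without the low-count filter and without any one of 4 libraries (-0.15 to -0.14). The differences between KO and WT responses at 6 h called 7 receptors with LPS (3 up, 4 down; 50.5% of all genes) and 7 with LTA (3 up, 4 down; 44.9%). The Mertk difference for LTA (0.58 ± 0.23, adjusted p = 0.034) was lost with RLE factors and by DESeq2 (0.50 each), without the low-count filter (0.62) and without any one of 5 libraries, and it was 0.36 without KO replicate 3 of LTA. That of Clec7a for LTA (-0.56 ± 0.09) was -0.15 and not called with total counts. With total counts the calls were 8 up and 1 down with LPS and 6 up and 1 down with LTA.

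At 6 h the ligands differed for more of these receptors in WT than in KO cells. The same held over all genes (31.8% called in WT, 2.66% in KO), so the KO count says little about these receptors. For LPS at 10 ng/mL against LTA at 100 ng/mL, edgeR's quasi-likelihood test and DESeq2 called 0 of the 10 in KO cells (2.66% of all genes by edgeR), and 3 had an unadjusted p under 0.05 (Mrc1, Clec7a and Mertk). The KO values were 0.08 ± 0.05 for Marco, 0.05 ± 0.04 for Msr1, -0.07 ± 0.04 for Clec4e and 0.01 ± 0.04 for Clec5a. For Mertk it was 0.49 ± 0.16 (adjusted p = 0.079), which became 0.70 and was called without KO replicate 3 of LTA. In WT cells 6 were called (31.8% of all genes): Msr1 (0.60 ± 0.04) and Mertk (1.31 ± 0.18) were higher with LPS, and Marco (-0.97 ± 0.05), Clec5a (-0.46 ± 0.04), Clec4e (-0.38 ± 0.04) and Clec4n (-0.33 ± 0.07) lower. The difference between the genotypes was itself called for 7 receptors (22.7% of all genes), the 6 called in WT and Clec7a, and kept its sign for all 7 with total counts. It was 1.06 ± 0.07 for Marco, -0.55 ± 0.06 for Msr1 and -0.82 ± 0.25 for Mertk, and the last was lost without KO replicate 3 of LTA (-0.61). The Clec4n difference (0.33 ± 0.10) was lost without KO replicate 3 of LPS (0.27) or replicate 1 of LTA (0.28), and that of Clec7a (0.28 ± 0.09) without WT replicate 1 of LPS or LTA or KO replicate 3 of LTA (0.21 to 0.24). At 2 h Clec4e alone was called in each genotype, higher with LPS by 0.21 ± 0.04 in KO (1.40% of all genes) and 0.18 ± 0.05 in WT (1.20%); the WT value was lost with the replicate block (0.18, adjusted p = 0.055) and without WT replicate 2 or 3 of LPS or 1 or 2 of LTA (0.15 to 0.18). Marco in KO at 2 h was also called by DESeq2 (0.41) and without KO replicate 2 of LPS (0.49) or 1 of LTA (0.53).

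**Figure D4:**
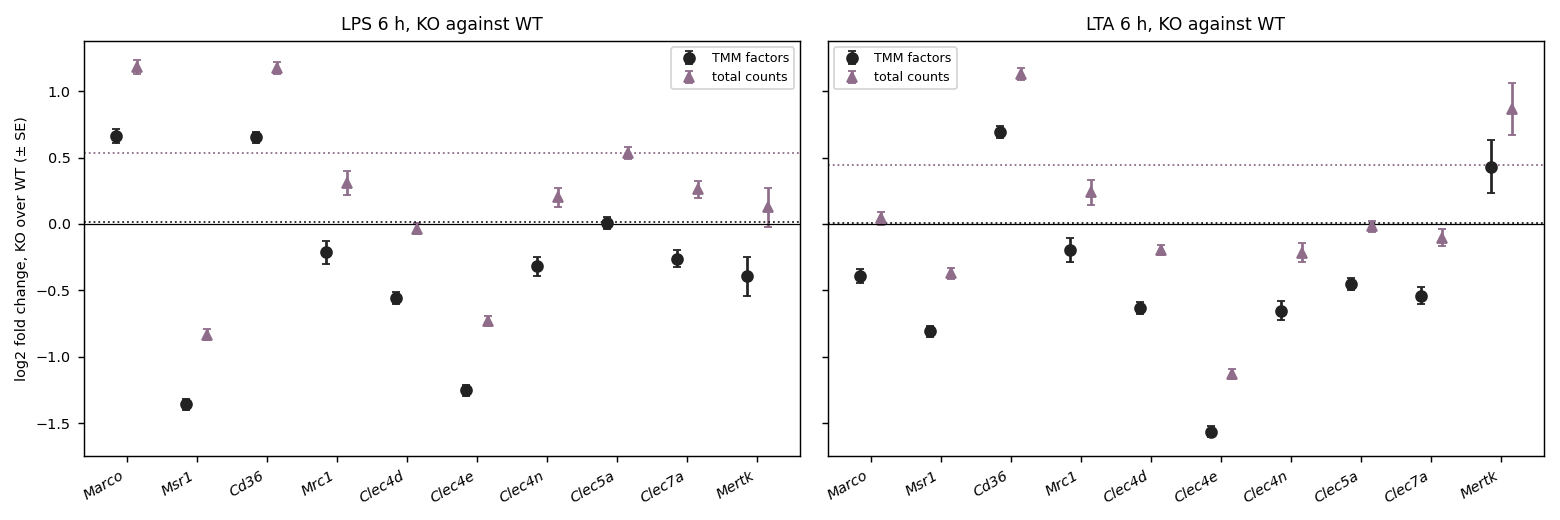
Log2 fold change of KO over WT at 6 h (± standard error) with TMM factors (black circles) and scaled by total counts (purple triangles), LPS on the left and LTA on the right; dotted lines mark the median over all genes tested. Msr1 and Clec4e lie below 0 and Cd36 above 0 under both scalings, while Mrc1 with either ligand, Clec4n, Clec7a and Mertk with LPS, and Marco with LTA change side.

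Summed neutrophil markers were lower in KO than in WT libraries at 6 h, though single markers differed in direction. Of 10 neutrophil markers 9 were in the table, and their summed level was 12.1 to 14.4 CPM of total counts in KO libraries at 6 h and 20.4 to 25.5 in WT libraries. Their part in the Clec4d, Clec4e and Clec4n values of KO against WT was not tested. Scaled by total counts, as this sum is, Clec4d with LPS at 6 h was -0.04, not called, and Clec4n 0.20. Under that scaling Clec4e with either ligand at 6 h, and Clec4d and Clec4n with LTA, were still called lower in KO. Ly6g and Elane had counts in untreated KO cells and in KO cells with LTA for 6 h, and were at 0 in the other 8 groups. Cxcr2 had counts in KO cells at 6 h of each ligand and was at 0 in WT cells at 6 h. S100a8, a calcium-binding protein, averaged 6.05 CPM in KO and 18.6 CPM in WT with LPS. Erythroid markers summed to 4273 to 5485 CPM of total counts in KO libraries and 4509 to 5993 in WT libraries with LPS for 6 h. With TMM factors 4 of 4 tested erythroid markers were lower in KO at 6 h with each ligand (median -0.64 with LPS and -0.53 with LTA), and with total counts 0 were; their part in the 6 h differences was not tested. Fibroblast and stromal markers summed to 57.0 to 123 CPM in the 2 h libraries and 3.19 to 6.23 CPM in the others.

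Relatives of these receptors were counted from lists of known family members, and each count below reads against the share of all genes called in its comparison, 13.4% untreated, 16.4% with LPS for 2 h and 63.3% with LPS for 6 h. Of 16 other scavenger receptors 11 were tested, and at 6 h with LPS 5 were higher and 5 lower in KO than in WT (63.3% of all genes called; median log2 fold change 0.11 over the 11 and 0.01 over all genes; 6 higher and 3 lower with total counts). The lower ones included Scarf1, an endothelial and macrophage scavenger receptor (-1.76 ± 0.06), Olr1, the lectin-like receptor of oxidised LDL (-1.82 ± 0.15), and Cxcl16, a transmembrane chemokine that binds oxidised LDL (-0.56 ± 0.04). Scarb1, the HDL receptor, was higher (0.88 ± 0.06). At 2 h of LPS 2 were higher and 2 lower in KO, among them Cxcl16, higher by 0.34 ± 0.05, and Lrp1, an endocytic receptor of the LDL receptor family, at -0.70 ± 0.06. Cxcl16 was thus lower in untreated KO cells (-0.25 ± 0.04), higher at 2 h and lower at 6 h, where total counts gave -0.04, not called.

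Of 28 other C-type lectin receptors 21 were in the table and 11 were tested. In untreated cells 5 were lower in KO, led by Cd207, or langerin (-1.28 ± 0.09), Clec4a1 (-0.67 ± 0.05), Clec4a2 (-0.56 ± 0.05) and Clec2d (-0.80 ± 0.10). With LPS for 2 h, 2 were higher and 2 lower in KO. Clec4a2, an inhibitory lectin of the same chromosome 6 family, was higher there (0.58 ± 0.07). At 6 h of LPS 4 were higher and 3 lower, close to the 63.3% of all genes called (median -0.04; 7 higher and 3 lower with total counts), with Clec2d, a ligand of NK cell receptors, at -2.23 ± 0.06 and Clec4a1 at -0.73 ± 0.05.

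All 22 genes listed for the signalling path behind the activating lectins were tested. With LPS for 2 h, 7 were higher and 4 lower in KO (median 0.11, against 0.01 over all genes). Syk, the kinase that the gamma chain and Clec7a recruit, averaged 253 CPM in KO and 139.6 CPM in WT (0.85 ± 0.07). The kinase Prkcd that phosphorylates Card9 (0.55 ± 0.06) and the paracaspase Malt1 (0.92 ± 0.12) were higher with it. LTA at 2 h called 8 higher and 3 lower. At 6 h of LPS 9 were higher and 11 lower (median -0.10), and total counts gave 14 higher and 5 lower. Malt1 (-2.09 ± 0.06) and the kinase Lyn (-1.10 ± 0.04) were then lower in KO, and Inpp5d, the phosphatase SHIP1 that restrains this path, was higher (70.7 CPM in KO and 15.7 CPM in WT, 2.17 ± 0.08). These 3 kept their direction with total counts.

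Around Mertk, 22 of 24 genes of apoptotic-cell clearance were tested, and at 6 h of LPS 3 were higher and 10 lower in KO (median -0.15), a smaller share than the 63.3% of all genes called and a split that total counts turned to 15 higher and 4 lower. Axl, the TAM receptor next to Mertk in function, averaged 89.7 CPM in KO and 311 CPM in WT (-1.80 ± 0.04). Their ligand Gas6 went the other way, 111 CPM in KO and 50.7 CPM in WT (1.13 ± 0.06). Xkr8, a phospholipid scramblase (-2.29 ± 0.07), and Itgav, the integrin alpha V subunit (-1.16 ± 0.04), were lower in KO. In untreated cells Axl was lower (-0.38 ± 0.04) and Gas6 higher (0.34 ± 0.04) in KO, and in WT cells LPS for 6 h moved Axl by 1.31 ± 0.04 and Gas6 by -1.90 ± 0.05.

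Around Cd36, 17 of 18 genes of PPARG and lipid handling were tested. At 6 h of LPS 8 were higher and 7 lower in KO (63.3% of all genes called; median -0.10; 13 higher and 2 lower with total counts). Pparg, the nuclear receptor known to drive Cd36, averaged 18.1 CPM in KO and 2.69 CPM in WT (2.74 ± 0.15), and Lipa, the lysosomal acid lipase, was higher too (0.88 ± 0.05). Acsl1, which activates long-chain fatty acids, was lower (-1.81 ± 0.05). The list had 1 higher and 8 lower in KO at 2 h of LPS (median -0.32; 16.4% of all genes called). There Pparg was lower in KO (-1.10 ± 0.21) and Acsl1 higher (0.80 ± 0.08), while Cd36 itself was higher in KO at both times. In untreated cells 4 were higher and 2 lower (13.4% of all genes called).

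All 17 transcription factors known to act on these receptors were tested. After 2 h of LPS 6 were higher and 4 lower in KO (median 0.13), and at 6 h 6 were higher and 11 lower (median -0.56; 7 higher and 6 lower with total counts). Cebpb, which encodes C/EBP beta, was lower in untreated KO cells (-0.49 ± 0.04), higher in KO at 2 h (0.68 ± 0.05 with LPS, 0.66 ± 0.05 with LTA) and lower at 6 h of LPS (-1.16 ± 0.04, or -0.64 with total counts). Cebpd had the same order, -0.48 ± 0.05 untreated, 1.28 ± 0.06 at 2 h of LPS and -0.97 ± 0.04 at 6 h. Hif1a, the hypoxia-inducible factor, was lower at 6 h (-1.48 ± 0.04), and Klf2, a zinc finger factor, was lower at 2 h (-1.86 ± 0.14).

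Genes most like each receptor were sought among the 6590 genes whose mean log2 CPM was 4 or more, over the 18 untreated and 6 h libraries, which share 6 groups and a library set. These are descriptions, with no test. Clec4e was matched by Vasp, Aoah and Gpr84 (Pearson r of 1.00 for each after rounding), of which Aoah encodes the lipase that deacylates LPS. Marco was matched by Lox, Nfkbid and Zc3h12c (0.99 to 1.00), and Msr1 by Ch25h, which makes 25-hydroxycholesterol, Casp4, the intracellular LPS sensor, and Tra2b (0.99 each). Clec4d was matched by Klf7, Ehd1 and Snx18 (1.00 each), Clec5a by Mob3c, Phlda1 and Maff (0.99 each) and Clec4n by Pla2g7, Tkt and Eif4e (0.97 to 0.98). Matches were looser for Cd36, with G6pdx, Phkg2 and Blnk (0.91 to 0.96), for Mrc1, with Selenop, C1qa and Prcp (0.95 each), for Mertk, with Pycard, Rnpep and Ahnak (0.94 to 0.95), and for Clec7a, with mt-Co3, Gm28437 and Crem (0.88 each). Among the receptors, Marco and Clec5a had an r of 0.98, Mrc1 and Mertk 0.84, and Marco and Mrc1 -0.92.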

How the data were processed

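The deposited values are gene-level expected counts, in 1 table of 30 libraries. The submitters' processing notes name GRCm38 and mm10, Subread 2.1.1 with featureCounts, SAMtools 1.22.1, STAR 2.7.11 and fastp 0.24.0, without their roles. Of the values above 0, 25.2% were not whole, so reads can be shared between genes, and all were rounded. Symbols came from GENCODE M21 (26304 of 32361 IDs). The labels' harvest text names 6 h alone, while 12 libraries are labelled 2 h; the labels were followed, and 0 columns were left over. Replicate pairs differed by more than sampling noise (chi-square over its degrees of freedom 1.11 to 9.56), so each library counts once.

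In R 4.3.3 with edgeR 4.0.16, filterByExpr (minimum count 10, minimum total 15) left 15119 genes, and a robust quasi-likelihood model fitted every group with a coefficient of its own (20 residual degrees of freedom over the 30 libraries, common biological coefficient of variation 0.0411). Standard errors are the absolute log2 fold change over the square root of F. A count of 0 allows up to 3 counts by counting error, 0.222 to 0.282 CPM in the deep libraries and 1.13 to 2.25 CPM at 2 h. The model was run on simulated counts in which a small set of genes was raised or lowered in a single group. That setting lacks the many called genes of the 6 h comparisons, so it cannot speak to directions there. Alternatives were DESeq2 1.42.0, RLE factors, total counts, no low-count filter, the groups of a contrast alone, a replicate block, no 2 h libraries, and each library left out. Per the labels a replicate is an animal. For the block, equal numbers within a genotype were taken as 1 animal, which the labels do not state. In KO against WT within a condition, the block was instead the replicate number shared by both genotypes, which joins different animals. Deviations of same-numbered libraries within a genotype correlated at a median of 0.01. The receptors and gene lists were chosen with earlier results of these data known, and the tests of 6 h against 2 h after values were seen. From each list, at most 4 called genes with the smallest p were named per comparison.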

Additional observations from a re-analysis of the deposited data

Results flagged for a closer look

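Differences between groups under the same contrast passed the test of the difference itself (edgeR's quasi-likelihood test, Benjamini-Hochberg adjusted p under 0.05) for 34 receptor results, all given as differences of log2 fold changes with TMM scaling.

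In the response to LPS at 6 h, KO minus WT, the difference was 1.43 for Marco, 0.55 for Clec4n and 0.39 for Clec5a. It was -0.84 for Msr1, -0.29 for Clec4e, -0.28 for Clec7a and -0.27 for Clec4d. In the response to LTA it was 0.58 for Mertk, 0.37 for Marco and 0.15 for Cd36, and -0.60 for Clec4e, -0.56 for Clec7a, -0.34 for Clec4d and -0.29 for Msr1.

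The KO against WT value at 6 h differed between LPS and LTA, LPS minus LTA, by 1.06 for Marco, 0.46 for Clec5a, 0.33 for Clec4n, 0.31 for Clec4e and 0.28 for Clec7a, and by -0.55 for Msr1 and -0.82 for Mertk.

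Between the times, 6 h minus 2 h, the KO against WT value with LPS differed by -2.32 for Clec4e, -1.71 for Marco, -1.66 for Msr1, -0.86 for Clec4d and -0.85 for Clec5a. With LTA it differed by -2.81 for Marco, -2.59 for Clec4e, -1.21 for Clec5a, -1.11 for Msr1, -1.04 for Clec4d, -0.53 for Clec4n and -0.34 for Clec7a, and by 1.44 for Mertk. The times were measured in different library sets, and their part in these differences cannot be told apart. Each KO against WT value stays within 1 set, but such values can themselves differ between the sets. For the first ID of Nnt the value was 1.06 untreated and 1.07 with LPS for 6 h, but -0.02 with LPS for 2 h.

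Of the differences for LTA, those of Mertk, Marco and Cd36 in the response and of Clec4n and Clec7a between the times lost their call under alternatives, and those of Msr1, Clec4d and Clec7a changed sign or lost their call with total counts in the response. In the response to LPS, those of Clec4d (0.23), Clec4e (0.21) and Clec7a (0.22) reversed with total counts. The LPS minus LTA differences of Clec4n, Clec7a and Mertk lost their call without single libraries.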

How the results depend on the processing

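Across the alternatives, 3083 of 3239 recomputed receptor results kept their side of the threshold without a reversal. A further 50 gained a call, 89 lost one and 17 reversed, all 17 of them with total counts. A change of sign was counted as a reversal only where the main run or the alternative called the value. Reversed KO against WT values were, with LPS at 6 h, 0.31 for Mrc1, 0.20 for Clec4n, 0.26 for Clec7a and 0.13 for Mertk, and with LTA 0.044 for Marco and 0.24 for Mrc1. Reversed WT responses were -0.38 for Cd36 and -0.57 for Clec7a with LPS, and -0.31 and -0.38 with LTA. Reversed KO minus WT responses were 0.23 for Clec4d, 0.21 for Clec4e and 0.22 for Clec7a with LPS, and 0.12 for Msr1, 0.073 for Clec4d and 0.34 for Clec5a with LTA, and the KO effect at 6 h minus 2 h of LTA reversed for Clec7a (0.16). All 17 involve the WT libraries of 6 h.

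Counts of called receptors that moved by over 1.5 times were few. LPS against LTA in WT at 2 h called 1, against 0 with the replicate block and 0 to 1 without single libraries; in KO at 2 h it called 1, against 2 by DESeq2 and 1 to 2 without single libraries; in KO at 6 h it called 0, and 0 to 1 without single libraries. The KO minus WT response to LTA called 7, against 4 with RLE factors, 4 by DESeq2 and 4 to 6 without single libraries. The KO effect at 6 h minus 2 h of LPS called 5, against 9 with total counts. The replicate block changed 1 other call, Clec7a in the WT response to LPS at 6 h, gained at 0.13 (adjusted p = 0.0498). That call was also gained with RLE factors and by DESeq2 (0.21 each), without the 2 h set, and without WT replicate 1 or 2 of LPS at 6 h. Total counts turned the value to -0.57. Depth limits the 2 h values of Marco in WT and of Mertk, which rest on 3 to 39 counts a library.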
